A study of Mus musculus with 550 samples.

Results

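The 10 genes described here carry dietary lipid through the absorptive cells of the small intestine: Cd36, Npc1l1, Fabp1, Fabp2, Dgat1, Mttp, Apob, Apoa1, Apoa4 and Apoc3. They are 10 of the 17097 genes tested, each read from the probe set of highest mean over the jejunum arrays among those annotated to that gene alone, and all 10 were measured. RNA was taken from the jejunum of C57Bl/6 mice 6 or 12 h after 1 dose and hybridised to Affymetrix mouse arrays, 1 array per animal, with 76 jejunum arrays in 11 groups. At 6 h the groups were dimethyl fumarate (DMF, in which both acid groups of fumaric acid carry a methyl group) at 100 mg/kg (DMF 100, 4 arrays), DMF at 179.2 mg/kg (DMF 179.2, 8), a mixture of calcium, magnesium and zinc salts of monoethyl fumarate (MEF, with 1 ethyl group) at 79.2 mg/kg (MEF salts, 5), DMF at 100 mg/kg together with the MEF salts at 79.2 mg/kg (DMF+MEF, 5) and the hydroxypropyl methylcellulose vehicle (VEH, 8). At 12 h they were DMF 100 (8 arrays), DMF 179.2 (8), MEF salts (7), DMF+MEF (8), VEH (8) and undosed animals (NAIVE, 7). For DMF+MEF the sample titles name both agents and the source names give the DMF dose alone. Values are log2 signal, and because the whole organ was used, fewer cells of a type and less RNA per cell cannot be told apart. A gene is called where limma's 2-sided test, Benjamini-Hochberg adjusted over all 17097 genes of a comparison, gives an adjusted p below 0.05. Errors of log2 changes are standard errors (SE) and those of levels are SD. Unless another setting is named, the SEs in jejunum come from a fit over all 76 arrays. Those at 6 h therefore also carry the spread at 12 h.

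In the enterocyte, the absorptive epithelial cell, fatty acids and cholesterol released from food by lipases enter at the brush border, are bound by carrier proteins, and are re-esterified in the endoplasmic reticulum. Triglyceride is then loaded onto apolipoprotein B to form the chylomicron, which gains further apolipoproteins and leaves through the lymph. Absorption is strongest in the proximal small intestine, where the transcription factor GATA4 is expressed, and bile acids are reclaimed at the distal end. DMF and MEF are electrophiles, and DMF is known as an activator of the transcription factor NRF2, which binds the antioxidant response element.

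The label of the organ was checked against 14 measured of 16 listed enterocyte markers, whose mean lay between 11.71 and 12.69 on every jejunum array, against a median of 6.28 over all genes. At 12 h, 4 arrays stood apart, with a mean of Hoxb6 and Hoxb9, homeobox genes expressed towards the distal gut, above 6: VEH replicates 5, 6 and 7 (7.44, 7.81 and 7.90) and DMF 100 replicate 15 (6.27). The other 12 h arrays reached at most 3.99, and the 6 h arrays at most 3.19. These 4 are called the distal arrays here, after the gene pair, and each 12 h result is given with and without them. Animal numbers also carried a gradient. Place is the position of an animal's number in successive runs of 12, and Tra2b, a splicing regulator, at 12 h averaged 7.26 at places 1 to 4, 6.64 at places 5 to 8 and 5.80 at places 9 to 12. VEH animals held places 1 to 8, and DMF 179.2 and NAIVE animals places 5 to 12, so that place and treatment overlap only in part. What place stands for is not given in the sources used here.

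Promoter windows of 4 members are shown because their genes carry the changes described below: Apob and Npc1l1 at 6 h, Apoa4 and Fabp1 at 12 h. Each runs 5′ to 3′ from 250 bases before to 50 bases after the annotated start (RefSeq, GRCm38.p6), and lies at chr12:7977427-7977726, plus strand (Apob), chr11:6230196-6230495, minus strand (Npc1l1), chr9:46240594-46240893, plus strand (Apoa4) and chr6:71199629-71199928, plus strand (Fabp1). Capitals mark a match to the antioxidant response element core TGACNNNGC in Fabp1 and to the GATA site TGATAA, read on the opposite strand, in Npc1l1.
Apob: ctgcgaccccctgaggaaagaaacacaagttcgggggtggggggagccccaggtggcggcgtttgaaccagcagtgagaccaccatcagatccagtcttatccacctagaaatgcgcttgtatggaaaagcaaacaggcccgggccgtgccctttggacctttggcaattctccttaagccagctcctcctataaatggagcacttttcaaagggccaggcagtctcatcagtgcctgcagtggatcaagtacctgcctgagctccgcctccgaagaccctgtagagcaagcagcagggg
Npc1l1: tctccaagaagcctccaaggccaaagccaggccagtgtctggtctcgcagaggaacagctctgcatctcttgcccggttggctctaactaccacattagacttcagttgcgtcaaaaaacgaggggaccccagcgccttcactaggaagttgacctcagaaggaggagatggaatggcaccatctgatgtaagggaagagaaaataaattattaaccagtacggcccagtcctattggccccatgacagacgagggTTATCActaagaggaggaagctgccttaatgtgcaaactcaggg
Apoa4: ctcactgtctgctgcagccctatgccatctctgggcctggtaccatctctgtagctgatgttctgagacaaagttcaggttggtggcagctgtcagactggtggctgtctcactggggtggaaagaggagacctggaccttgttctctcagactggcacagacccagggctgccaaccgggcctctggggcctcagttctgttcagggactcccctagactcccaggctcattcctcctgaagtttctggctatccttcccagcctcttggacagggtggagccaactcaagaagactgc
Fabp1: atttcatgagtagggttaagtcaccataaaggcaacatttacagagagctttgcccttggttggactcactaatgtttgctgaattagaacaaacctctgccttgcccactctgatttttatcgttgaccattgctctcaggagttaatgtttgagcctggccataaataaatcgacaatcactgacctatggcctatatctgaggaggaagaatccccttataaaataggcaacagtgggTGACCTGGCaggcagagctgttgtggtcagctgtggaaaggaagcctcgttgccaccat
The table used held windows for 8 of the 10 genes (not Apoc3 or Dgat1). Both strands were searched for TGACNNNGC and for the GATA sites AGATAA and TGATAA, which can overlap one another. The Fabp1 match, TGACCTGGC, covered bases 9 to 1 before the start, on the strand of the gene. The Npc1l1 match covered bases 7 to 12 after the start, and Apoa1 held the same site at bases 16 to 21 after its start. Of all 32851 promoter windows of this length, 12.4 percent held TGACNNNGC, 11.2 percent AGATAA, 9.05 percent TGATAA and 18.6 percent either GATA site. A match describes these letters and no binding.

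At 6 h, the change among these genes was a lower Apob with the higher DMF dose and with DMF+MEF, and a slightly higher Npc1l1 with the higher DMF dose. With DMF 179.2, 2 of the 10 were called against VEH, Npc1l1 higher and Apob lower, where 8.62 percent of all genes were called, 5.60 percent higher and 3.01 percent lower. With DMF+MEF, 1 was called, Apob lower, where 6.57 percent of all genes were called, 2.36 percent lower. With DMF 100, limma called 0 of the 10 (1 at an unadjusted p below 0.05) against 2.61 percent of all genes, and with the MEF salts 0 (0 unadjusted) against 1.19 percent. The median change of the 10 was 0.06 for DMF 100, 0.05 for DMF 179.2, 0.06 for MEF salts and 0.02 for DMF+MEF, and that over all genes was 0.0 in each. The 4 comparisons share the same 8 VEH arrays.

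Apob encodes apolipoprotein B, the scaffold protein of the chylomicron, of which each particle holds a single copy. With DMF 100 its level was 9.93, 9.33, 9.35 and 9.63 on the 4 arrays, and with DMF 179.2 it lay between 7.81 and 10.12 with a median of 9.86, against 10.14 to 11.21 with a median of 10.71 with VEH. Every array of both DMF groups lay below every VEH array. With the MEF salts the levels were 10.77, 10.50, 10.30, 10.10 and 9.48, which overlapped those of VEH. With DMF+MEF the levels were 9.27, 9.04, 9.06, 8.62 and 10.68, so that 4 of 5 arrays lay below all VEH arrays. The change was -1.28 ± 0.34 for DMF 179.2 (95 percent confidence interval -1.95 to -0.61, adjusted p = 0.00791), 2.43-fold lower, and -1.37 ± 0.38 for DMF+MEF (adjusted p = 0.0174), 2.59-fold lower. It was -1.15 ± 0.41 for DMF 100 (adjusted p = 0.121) and -0.48 ± 0.38 for the MEF salts (adjusted p = 0.688), neither of which passed the test.

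Apob also followed the place of the animal number, and its changes were smaller with place as a covariate. Its level at 6 h averaged 10.72 ± 0.53 at places 1 to 4 (n = 7), 10.17 ± 0.32 at places 5 to 8 (n = 12) and 9.09 ± 0.58 at places 9 to 12 (n = 11), and at 12 h 10.40 ± 0.30 (n = 15), 9.69 ± 0.41 (n = 15) and 8.96 ± 0.42 (n = 16). Over the arrays of all groups its correlation with place was r = -0.78 (rho = -0.85) over 30 arrays at 6 h and r = -0.96 (rho = -0.95) over the 42 arrays at 12 h that are not distal. Both had a permutation p of 1e-05, the smallest that 100000 permutations can give (adjusted p = 5e-05 over 40 relations for r), and r was -0.89 and -0.95 without the 2 arrays at the most extreme places. With place as a covariate the 6 h changes were -0.55 ± 0.20 for DMF 100 (adjusted p = 0.104), -0.59 ± 0.17 for DMF 179.2 (adjusted p = 0.022), -0.22 for MEF salts (adjusted p = 0.649) and -0.60 ± 0.20 for DMF+MEF (adjusted p = 0.0761). Of these, the DMF 179.2 change still passed the test and the DMF+MEF change did not. Within places 5 to 8 alone, the 4 DMF 179.2 arrays lay at 9.90 to 10.12 and the 4 VEH arrays at 10.14 to 10.74, with no overlap. The change there was -0.41, which did not pass the test (adjusted p = 0.354). At 6 h no span of 4 places held 2 or more arrays both of VEH and of DMF 100 or DMF+MEF, so no such value exists for those groups.

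**Figure D1:**
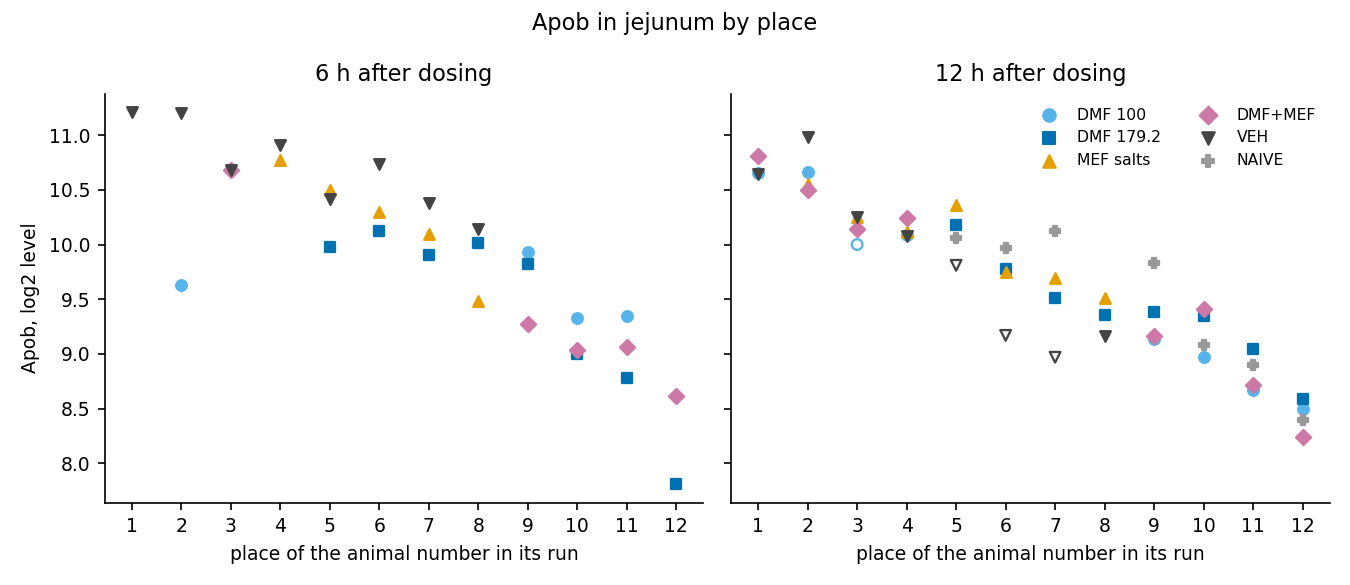
Apob log2 level on each jejunum array (vertical axis) against the place of the animal number in its run of 12 (horizontal axis), at 6 h on the left and 12 h on the right, with a marker per group and the 4 distal arrays drawn open. The level is lower at higher places in both panels, and at 6 h the DMF 179.2 arrays at places 5 to 8 (9.90 to 10.12) sit below the VEH arrays at the same places (10.14 to 10.74).

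At 12 h Apob was not called in any of the 4 dosed groups. Its level lay between 8.50 and 10.66 with DMF 100 (median 9.57), 8.59 and 10.18 with DMF 179.2 (9.37), 9.51 and 10.55 with MEF salts (10.11) and 8.24 and 10.81 with DMF+MEF (9.77), against 8.97 and 10.98 with VEH (9.95). All of these ranges overlapped. The changes were -0.30 (adjusted p = 0.848), -0.49 (adjusted p = 0.44), 0.15 (adjusted p = 1.0) and -0.23 (adjusted p = 0.896) in that order, and -0.70, -0.83, -0.19 and -0.57 without the distal arrays, none called. With place as a covariate and all arrays they were 0.11, 0.34, 0.25 and 0.18, also none called, so with all arrays the sign of 3 of the 4 depended on place. With place as a covariate and without the distal arrays they were -0.01, 0.17, 0.09 and 0.02, with SEs of 0.17 to 0.18, none called. Within places 5 to 8 at 12 h, DMF 179.2 averaged 9.70 (9.36 to 10.18) and VEH 9.28 (8.97 to 9.81), where 3 of the 4 VEH arrays are distal. Within places 1 to 4, DMF 100 averaged 10.35 and DMF+MEF 10.42, against 10.49 for VEH. The DMF 179.2 effect at 12 h minus that at 6 h was 0.79 ± 0.47 (adjusted p = 0.418), 0.93 ± 0.24 with place as a covariate (adjusted p = 0.011), and 0.76 ± 0.25 with place and without the distal arrays (adjusted p = 0.0978).

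Npc1l1 encodes the sterol transporter that takes up cholesterol at the brush border and is the target of ezetimibe. At 6 h its level with DMF 179.2 lay in a narrow range of 12.63 to 12.75 (median 12.66), above every VEH array, which lay between 12.30 and 12.50 (median 12.44). The change was 0.24 ± 0.07 (95 percent confidence interval 0.10 to 0.38, adjusted p = 0.0241), 1.18-fold higher. With the 6 h arrays fitted alone the change was 0.24 ± 0.04 (limma, adjusted p = 0.00123). It was 0.20 within places 5 to 8 (adjusted p = 0.015) and 0.21 with place as a covariate, where it did not pass the test (adjusted p = 0.1). With DMF 100 the levels were 12.51, 12.58, 12.50 and 12.75, of which 3 lay above all VEH arrays, with a change of 0.16 ± 0.09 (adjusted p = 0.407). The MEF salts gave 12.46, 12.34, 12.50, 12.48 and 12.58, and DMF+MEF 12.52, 12.55, 12.47, 12.68 and 12.31. Both groups overlapped VEH, with changes of 0.05 (adjusted p = 1.0) and 0.08 (adjusted p = 0.738). With the groups pooled, Npc1l1 tended to be higher at higher places, where Apob was lower. These values pool groups that hold different places, so place and treatment are not separated in them. Within groups at 12 h, it was higher at places 9 to 12 than at the group's lower places with DMF 100 (12.53 and 12.17), DMF 179.2 (12.53 and 12.33) and DMF+MEF (12.43 and 12.24). It was not higher at the higher places with MEF salts (12.30 and 12.35), NAIVE (12.27 and 12.31) or VEH (12.02 and 12.33). These means keep the distal arrays, 3 of them among the 4 VEH arrays at places 5 to 8 (11.80 to 12.40). The other is the lowest DMF 100 array at places 1 to 4 (11.91). Without the distal arrays the lowest level was 12.24 with VEH and 12.23 with DMF 100. At 12 h its r with place was 0.56 (rho = 0.53) over 42 arrays (permutation, adjusted p = 0.00197), and at 6 h 0.25 (rho = 0.26) over 30 (adjusted p = 0.374), or 0.66 without the 2 arrays at the most extreme places.

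**Figure D2:**
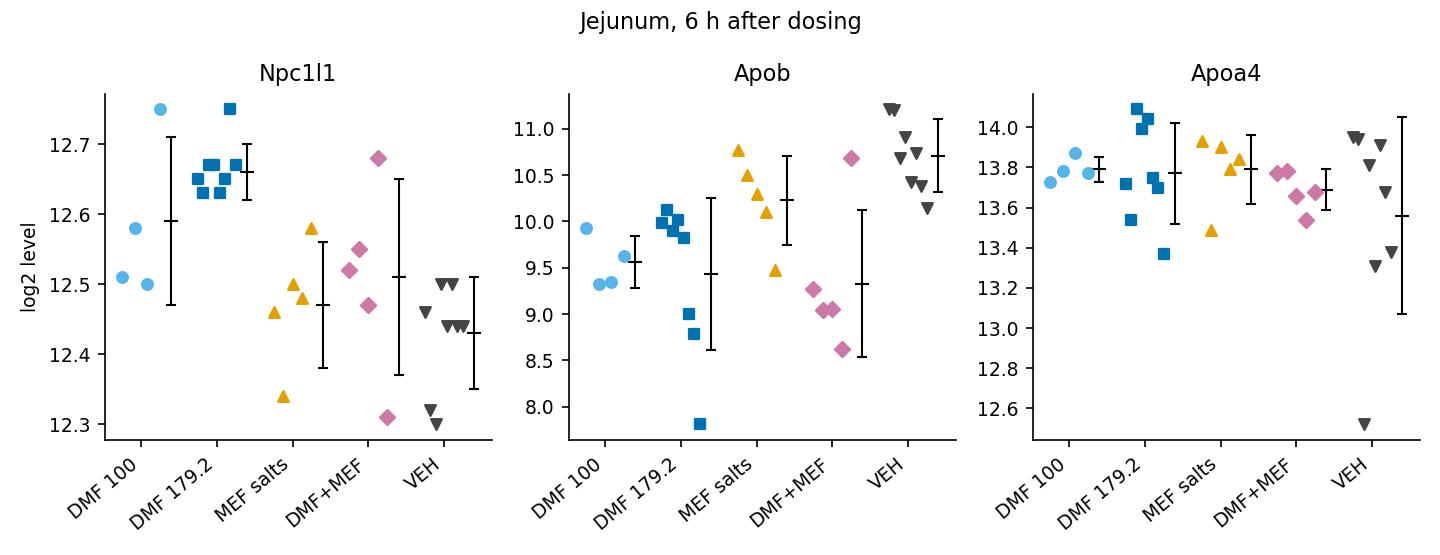
Log2 levels (vertical axes) of Npc1l1, Apob and Apoa4 on each jejunum array at 6 h, by group along the horizontal axis, with the mean and SD of each group beside its points. The 8 DMF 179.2 arrays lie above all VEH arrays for Npc1l1 (12.63 to 12.75 and 12.30 to 12.50) and below all of them for Apob, while the Apoa4 groups overlap.

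The other 8 genes were not called in any dosed group at 6 h. Cd36, a scavenger receptor that binds long-chain fatty acids, had levels of 9.02, 9.28, 9.57 and 9.65 with DMF 100, 8.65 to 10.09 with DMF 179.2, 9.23 to 10.00 with MEF salts and 9.37 or less with DMF+MEF, against 8.89 to 10.00 with VEH. Its changes were 0.04, 0.11, 0.20 and -0.13, each with an SE of 0.33 to 0.40. With the 6 h arrays fitted alone the SEs were 0.18 to 0.23, and none was called. Fabp1, the liver-type fatty acid binding protein, which also takes part in budding of the vesicles that carry chylomicrons, averaged 13.75 ± 0.11, 13.69 ± 0.19, 13.74 ± 0.21 and 13.69 ± 0.10 in the dosed groups and 13.58 ± 0.21 with VEH. Fabp2, the intestinal-type carrier of the same ligands, moved by 0.01 to 0.04. Dgat1, which makes triglyceride from diacylglycerol in its last step, moved by -0.10, -0.02, 0.04 and -0.13.

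Apart from Apob, no gene of assembly or of the particle surface passed the test at 6 h. Mttp encodes the transfer protein that loads triglyceride onto nascent apolipoprotein B, and its changes were 0.14, 0.01, 0.07 and 0.02 for DMF 100, DMF 179.2, MEF salts and DMF+MEF. Apoa4, an apolipoprotein made by enterocytes in response to fat, averaged 13.79 ± 0.06, 13.77 ± 0.25, 13.79 ± 0.17 and 13.69 ± 0.10 in these groups and 13.56 ± 0.49 with VEH. Its changes of 0.23, 0.21, 0.23 and 0.13 had SEs of 0.41 to 0.50. With the 6 h arrays fitted alone, and so without the distal arrays, the SEs were 0.15 to 0.18, and none was called. Apoc3, which inhibits lipoprotein lipase and slows the clearance of triglyceride-rich particles, moved by 0.09, 0.06, 0.14 and 0.03. Apoa1, the main protein of high-density lipoprotein, moved by -0.01 to -0.04, with SEs of 0.02. Apoa1 and Fabp2 averaged 14.26 and 14.20 over the 76 arrays, at the top of the scale, where the highest mean of any gene was 14.26. Whether their probe sets can register a further increase was not tested.

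At 12 h more of these genes were called, all of them higher, and the calls rested on the distal arrays, 3 of which are VEH. With all arrays, limma called 6 of the 10 genes higher with DMF 179.2 (Cd36, Npc1l1, Fabp1, Mttp, Apoa4 and Apoc3) where 7.40 percent of all genes were called, 4.74 percent higher. It called 2 higher with the MEF salts (Fabp1 and Apoa4), against 0.813 percent of all genes, 0.550 percent higher, and 4 higher with DMF+MEF (Fabp1, Mttp, Apoa4 and Apoc3), against 3.45 percent, 1.82 percent higher. DMF 100 had 0 (6 at an unadjusted p below 0.05) against 0.632 percent. The median change of the 10 was 0.23 for DMF 100, 0.27 for DMF 179.2, 0.24 for MEF salts and 0.24 for DMF+MEF, and 0.0 over all genes. None of these calls passed the test without the distal arrays. There limma called 0 of the 10 with DMF 100 (1 unadjusted, 0.216 percent of all genes called), 0 with DMF 179.2 (2 unadjusted, 1.58 percent), 0 with MEF salts (1 unadjusted, 0.0292 percent) and 1 with DMF+MEF, Apoa1 lower (0.445 percent, 0.111 percent lower). The medians were then 0.04, 0.05, 0.01 and 0.01. The 4 comparisons share their VEH arrays, 8 in all and 5 without the distal ones.

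Markers of position along the gut moved with these arrays. The mean of 9 measured of 12 listed proximal-intestine genes lay between 7.23 and 9.96 with DMF 100, 8.72 and 9.95 with DMF 179.2, 8.49 and 9.72 with MEF salts and 8.87 and 10.03 with DMF+MEF, against 5.86 and 9.91 with VEH, and the lowest VEH array that is not distal stood at 8.38. The mean of 19 measured of 20 listed genes of the distal intestine and colon reached 5.94 with VEH and 5.48 with DMF 100, and at most 5.06 elsewhere at 12 h, with Hoxa10 at the floor of the scale on every array. Enterocyte markers spanned 11.73 to 12.36 over the dosed groups and 11.71 to 12.28 with VEH, and without the distal arrays their lowest values were 11.96 with DMF 100 and 11.96 with VEH. Gata4, on the proximal list, was 3.87, 3.23 and 3.23 on the 3 distal VEH arrays and 7.85 to 9.34 on the other 5. It was called higher in all 4 dosed groups with all arrays (1.97, 2.15, 2.34 and 2.25) and in none without the distal ones (0.37, 0.25, 0.45 and 0.35). Fabp6, the ileal bile acid binding protein, ranged from 2.84 to 13.51 over the 12 h arrays that are not distal, so arrays also differed within groups.

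Among the uptake genes at 12 h, Cd36 had levels of 7.17 to 9.47 with DMF 100 (median 8.32), 7.70 to 9.54 with DMF 179.2 (9.02), 7.88 to 9.30 with MEF salts (8.53) and 7.80 to 9.74 with DMF+MEF (8.84), against 6.41 to 9.86 with VEH (8.18). The distal VEH arrays gave 6.42, 6.56 and 6.41, below every other array of the 6 groups, and the other 5 VEH arrays spanned 8.15 to 9.86. The DMF 179.2 change of 1.01 ± 0.33, 2.01-fold higher (adjusted p = 0.0466), was 0.16 ± 0.31 without the distal arrays, and its call was also lost after a further quantile normalization (adjusted p = 0.0521). The changes of 0.46, 0.65 and 0.86 with DMF 100, MEF salts and DMF+MEF, none called, were -0.26, -0.20 and 0.01 there. Of 3 Cd36 probe sets, the other 2 gave 0.95 and 0.78 for DMF 179.2. Cd36 is also made by fat cells, and the mean of 4 measured of 7 listed adipocyte markers lay between 5.41 and 9.05 with DMF 179.2 and 6.16 and 8.0 with VEH, whose part in the Cd36 level was not tested.

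Npc1l1 at 12 h lay between 11.91 and 12.60 with DMF 100, 12.21 and 12.69 with DMF 179.2, 12.19 and 12.45 with MEF salts and 12.18 and 12.55 with DMF+MEF, against 11.80 and 12.42 with VEH. With DMF 179.2, 3 of 8 arrays lay above all VEH arrays. The change with DMF 179.2 was 0.26 ± 0.07 (adjusted p = 0.0182), 1.19-fold higher, close to that at 6 h, but it was 0.08 without the distal arrays (adjusted p = 0.644) and 0.18 with place as a covariate (adjusted p = 0.126). With DMF 100, MEF salts and DMF+MEF it was 0.18, 0.15 and 0.16, none called. The DMF 179.2 effect at 12 h minus that at 6 h was 0.02 ± 0.10 (adjusted p = 1.0) with all arrays and -0.15 ± 0.08 without the distal arrays (adjusted p = 0.471).

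Of the fatty acid carriers, Fabp1 was called in 3 dosed groups at 12 h, and Fabp2 in none on the values as deposited. Fabp1 lay between 10.89 and 13.74 with DMF 100 (median 13.25), 12.41 and 13.78 with DMF 179.2 (13.28), 12.71 and 13.55 with MEF salts (13.24) and 12.98 and 13.70 with DMF+MEF (13.30), against 9.90 and 13.57 with VEH (12.33). The distal VEH arrays gave 10.72, 9.91 and 9.90 and the other 5 gave 12.12 to 13.57, and the lowest DMF 100 value is the distal array of that group. The changes were 1.05 ± 0.31 (adjusted p = 0.0902), 1.34 ± 0.31 (adjusted p = 0.00376), 1.35 ± 0.32 (adjusted p = 0.023) and 1.47 ± 0.31 (adjusted p = 0.00234) with DMF 100, DMF 179.2, MEF salts and DMF+MEF, the last 3 called and 2.52-fold, 2.56-fold and 2.76-fold higher. Without the distal arrays they were 0.34 (adjusted p = 0.627), 0.34 (adjusted p = 0.451), 0.36 (adjusted p = 0.743) and 0.47 (adjusted p = 0.361), all positive and none called. The other Fabp1 probe set gave 1.18, 1.63, 1.80 and 1.82 with all arrays, with the same 3 groups called. Fabp2 moved by 0.08, 0.07, 0.09 and 0.09 with all arrays, none called (after a further quantile normalization 0.08 with DMF 179.2 and 0.11 with DMF+MEF were called, adjusted p = 0.0089 and 0.000979), and by at most 0.01 in size without the distal arrays, where the VEH levels on the distal arrays had been 14.03, 14.01 and 13.92.

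Mttp, which loads triglyceride, was called in 2 dosed groups at 12 h, and Dgat1, which makes it, in none with all arrays and no covariate. Dgat1 lay between 12.14 and 12.54 with DMF 100, 12.33 and 12.57 with DMF 179.2, 12.34 and 12.64 with MEF salts and 12.25 and 12.52 with DMF+MEF, against 11.87 and 12.64 with VEH. Its lowest VEH values, 12.00, 11.87 and 11.98, were the distal arrays. The changes were 0.07, 0.13, 0.22 and 0.10 with all arrays, none called, and -0.11, -0.09, 0.00 and -0.12 without the distal ones, none called. With place, which Dgat1 follows, as a covariate it was called higher with DMF 179.2 (0.21, adjusted p = 0.0442), and the VEH difference to NAIVE was -0.25 (adjusted p = 0.02). Mttp lay between 12.10 and 12.70 with DMF 100, 12.04 and 12.68 with DMF 179.2, 12.23 and 12.57 with MEF salts and 12.29 and 12.59 with DMF+MEF, against 11.59 and 12.53 with VEH (12.27 and 12.53 without the distal arrays). Its changes were 0.28 ± 0.09 with DMF 179.2 (adjusted p = 0.039) and 0.31 ± 0.09 with DMF+MEF (adjusted p = 0.0334), which passed the test (0.27 and adjusted p = 0.0778 for DMF 179.2 with place as a covariate), and 0.28 with DMF 100 (adjusted p = 0.116) and 0.27 with MEF salts (adjusted p = 0.141), which did not. With the distal arrays left out they were 0.08, 0.03, 0.02 and 0.06 with DMF 100, DMF 179.2, MEF salts and DMF+MEF.

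**Figure D3:**
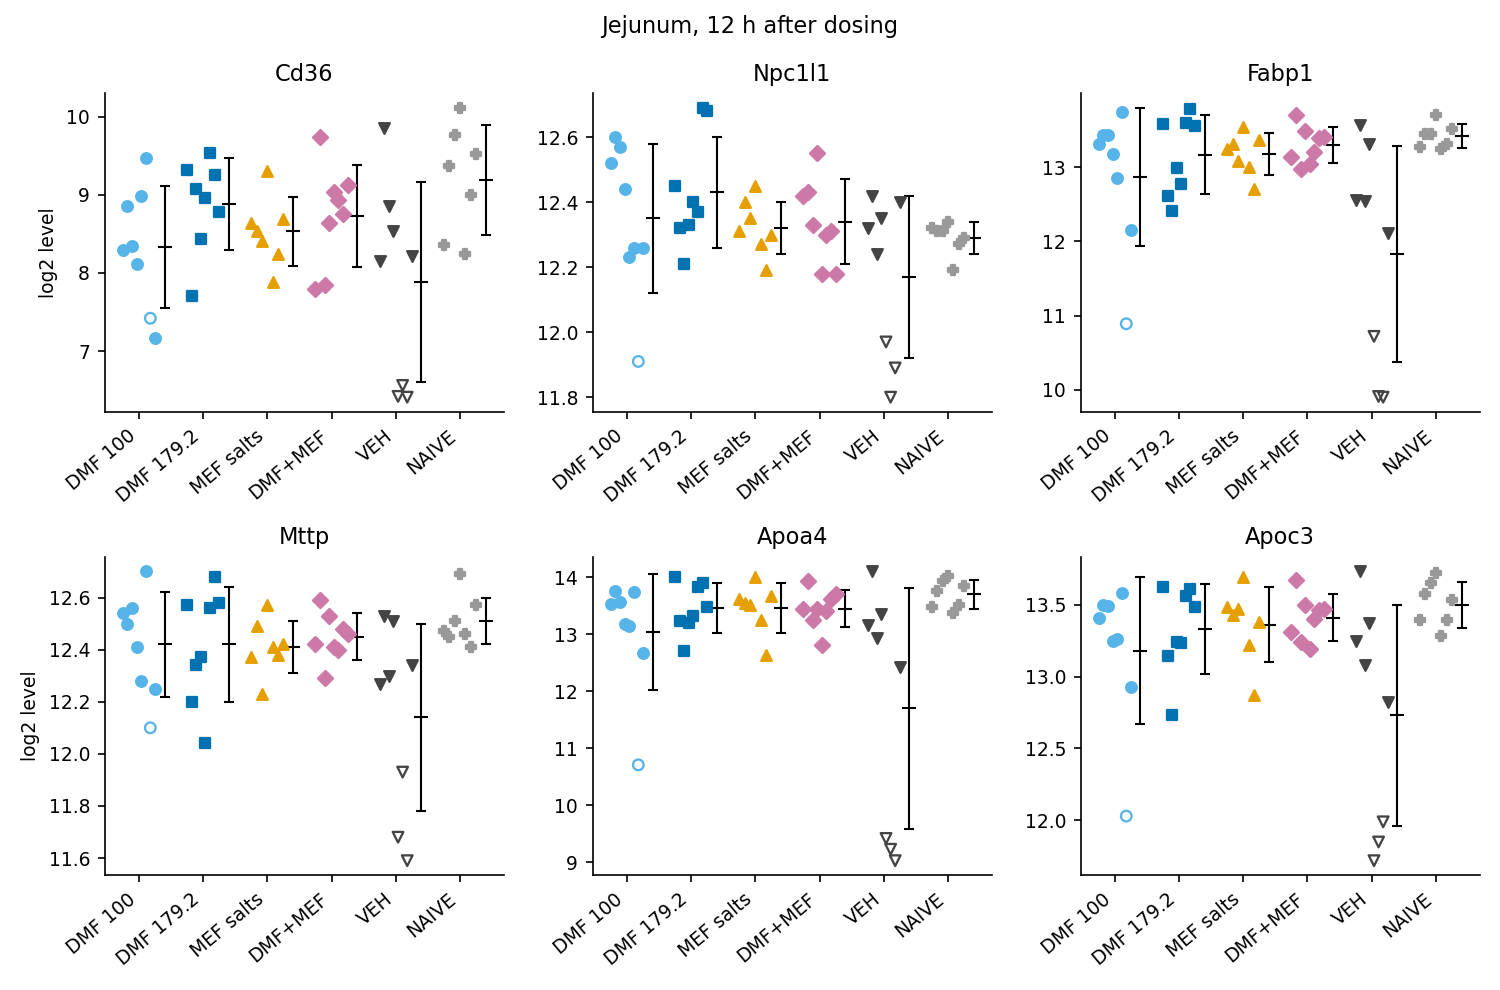
Log2 levels (vertical axes) of Cd36, Npc1l1, Fabp1, Mttp, Apoa4 and Apoc3 on each jejunum array at 12 h, by group along the horizontal axis, with the mean and SD of each group and the 4 distal arrays drawn open. In all 6 panels the 3 open VEH points lie below the filled VEH points, for example at 9.03 to 9.42 against 12.42 to 14.10 for Apoa4.

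Of the surface apolipoproteins, Apoa4 had the widest range at 12 h. It lay between 10.71 and 13.76 with DMF 100 (median 13.36), at least 12.71 with DMF 179.2 (13.40), between 12.63 and 14.01 with MEF salts (13.54) and 12.81 and 13.94 with DMF+MEF (13.44), against 9.03 and 14.10 with VEH (12.68). The distal VEH arrays gave 9.42, 9.23 and 9.03 and the distal DMF 100 array 10.71, while every other array at 12 h stood at 12.42 or above. The changes were 1.33 ± 0.41 with DMF 100 (adjusted p = 0.104), 1.75 ± 0.41 with DMF 179.2 (adjusted p = 0.00406), 1.76 ± 0.42 with MEF salts (adjusted p = 0.0262) and 1.75 ± 0.41 with DMF+MEF (adjusted p = 0.00729). Those called were 3.37-fold, 3.38-fold and 3.35-fold higher. Without the distal arrays the changes were 0.18 (adjusted p = 0.99), 0.27 (adjusted p = 0.688), 0.27 (adjusted p = 0.965) and 0.26 (adjusted p = 0.818), none called.

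Apoc3 followed Apoa4 with a smaller range. It lay between 12.03 and 13.58 with DMF 100, 12.73 and 13.62 with DMF 179.2, 12.87 and 13.69 with MEF salts and 13.19 and 13.67 with DMF+MEF, against 11.72 and 13.73 with VEH, whose distal arrays gave 11.72, 11.85 and 11.99. The changes of 0.60 ± 0.17 with DMF 179.2 (adjusted p = 0.022) and 0.68 ± 0.17 with DMF+MEF (adjusted p = 0.0146) passed the test, and those of 0.45 with DMF 100 (adjusted p = 0.218) and 0.64 with MEF salts (adjusted p = 0.0632) did not. With the distal arrays left out the changes were 0.09, 0.07, 0.11 and 0.15 with DMF 100, DMF 179.2, MEF salts and DMF+MEF.

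Apoa1 was lower in 1 dosed group at 12 h once the distal arrays were left out. With DMF+MEF its level lay between 14.19 and 14.24 (median 14.20), and the 5 VEH arrays that are not distal gave 14.29, 14.26, 14.28, 14.30 and 14.25, above all 8 DMF+MEF arrays. The change was -0.07 ± 0.01 without the distal arrays (adjusted p = 0.00145), 1.05-fold lower, and also -0.07 with place as a further covariate (adjusted p = 0.00341). With all arrays it was -0.04 ± 0.02 (adjusted p = 0.155), where the distal VEH arrays gave 14.19, 14.15 and 14.21. It was -0.03, -0.05 and -0.04 with DMF 100, DMF 179.2 and MEF salts without the distal arrays, none called. The NAIVE arrays lay between 14.17 and 14.25, and VEH without the distal arrays was 0.05 ± 0.01 above NAIVE (limma, adjusted p = 0.138). Whether the Apoa1 difference stems from the VEH level was not tested. The level lies at the top of the scale, and compression of changes there was not tested.

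**Figure D4:**
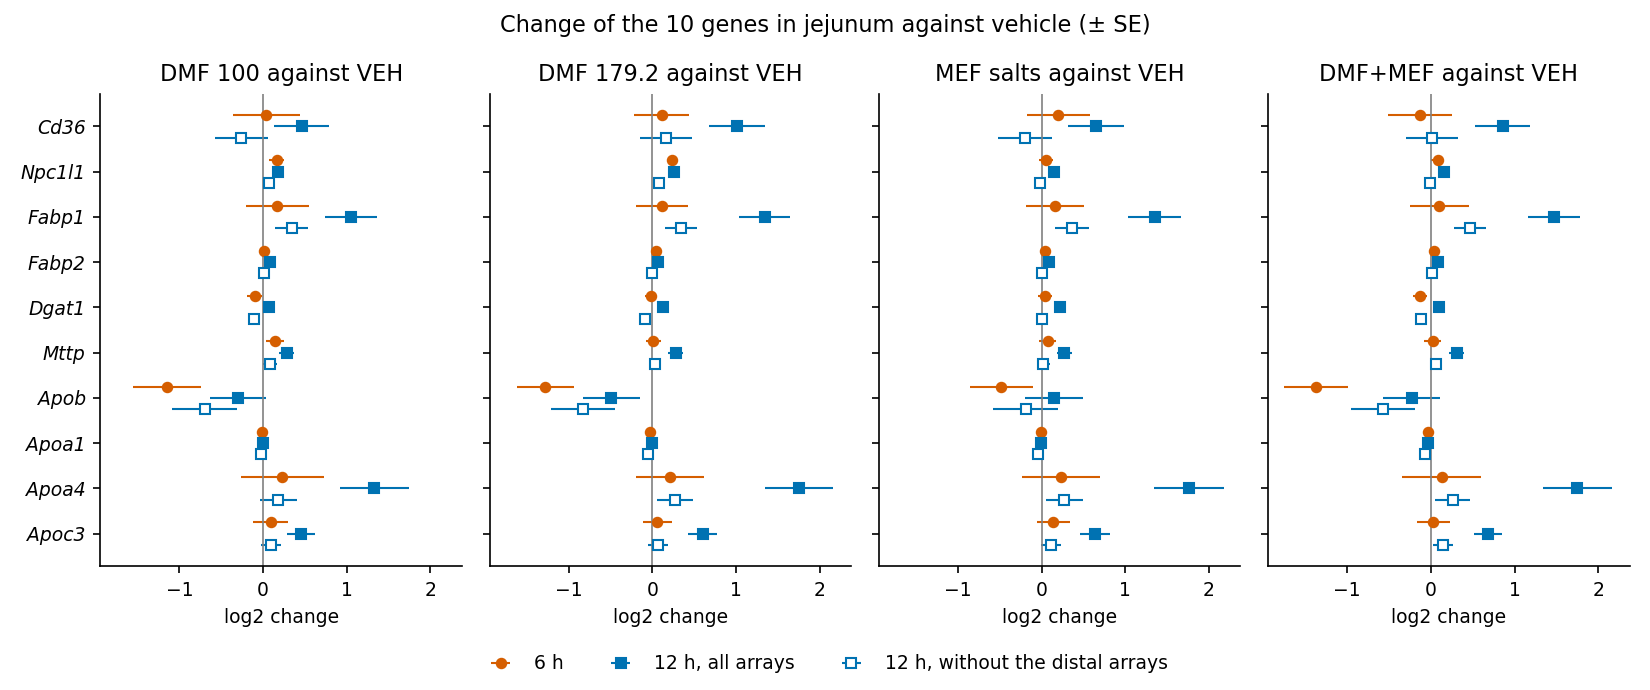
Log2 change against VEH (horizontal axes) of each of the 10 genes (vertical axis) with DMF 100, DMF 179.2, MEF salts and DMF+MEF, with bars of 1 SE, at 6 h (circles), at 12 h with all arrays (filled squares) and at 12 h without the distal arrays (open squares). For Apoa4, Fabp1 and Apoc3 the filled squares lie to the right of the open ones in every panel, as with 1.75 and 0.27 for Apoa4 with DMF 179.2, and Apob at 6 h lies to the left.

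Whether the vehicle itself differed from no dosing was asked at 12 h. With all arrays, 5 of the 10 genes were called lower with VEH than in NAIVE animals, where 5.44 percent of all genes were called, 3.61 percent lower, and the median change of the 10 was -0.26. Apoa4 changed by -2.0 ± 0.42 (adjusted p = 0.00264), Fabp1 by -1.59 ± 0.32 (adjusted p = 0.00169), Cd36 by -1.32 ± 0.34 (adjusted p = 0.0124), Apoc3 by -0.77 ± 0.18 (adjusted p = 0.00476) and Mttp by -0.37 ± 0.09 (adjusted p = 0.00941). NAIVE levels were tight, 13.37 to 14.02 for Apoa4 and 13.24 to 13.71 for Fabp1, and none of the 7 NAIVE arrays was distal. Without the distal arrays limma called 0 of the 10 (4 at an unadjusted p below 0.05, 0.158 percent of all genes called), and the changes were -0.51 for Apoa4 (adjusted p = 0.376), -0.60 for Fabp1 (adjusted p = 0.221), -0.47 for Cd36, -0.25 for Apoc3 and -0.12 for Mttp. The smallest p there was that of Apoa1, which was 0.05 ± 0.01 higher with VEH (limma, adjusted p = 0.138). The Apob difference was 0.41 (adjusted p = 0.652), where VEH held places 1 to 8 and NAIVE places 5 to 12. Without the distal arrays it was 0.75 (adjusted p = 0.527), and -0.26 with place as a further covariate (adjusted p = 0.745). Within shared places, with the distal arrays kept, it was -0.77 (adjusted p = 0.134), so its sign depended on place.

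Raising the DMF dose or adding the MEF salts to it changed none of the 10 genes past the test at either time. For DMF 179.2 against DMF 100, limma called 0 at 6 h (0 unadjusted, 0.316 percent of all genes called) and 0 at 12 h (0 unadjusted, 0.152 percent). For DMF+MEF against DMF 100 it called 0 at 6 h (0 unadjusted, 0.123 percent) and 0 at 12 h (1 unadjusted, Apoa1, 0.0877 percent). The confidence intervals of these differences bound what they allow. For Apob at 6 h the difference was -0.13 for the higher dose (95 percent confidence interval -0.95 to 0.69) and -0.22 for the added MEF salts (-1.12 to 0.67). For Apoa4 at 12 h it was 0.42 (-0.40 to 1.24) for the higher dose and 0.41 (-0.41 to 1.23) for the added salts. Without the distal arrays limma called 0 at 12 h for the higher dose (0 unadjusted, 0.158 percent of all genes called) and 0 for the added salts (1 unadjusted, 0.0409 percent), and the Apoa4 differences were 0.09 (-0.29 to 0.47) and 0.08 (-0.30 to 0.46). DMF and the MEF salts alone were given at different doses and were not compared with each other.

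The DMF 179.2 effect was also contrasted between the times. At 12 h minus 6 h with all arrays, limma called 0 of the 10 (4 unadjusted) where 3.15 percent of all genes were called, although all 10 differences were positive with a median of 0.40. Apoa4 had 1.54 ± 0.58 (adjusted p = 0.131) and Fabp1 1.23 ± 0.44 (adjusted p = 0.103). The test by limma again called 0 of the 10 without the distal arrays (0 unadjusted, 0.848 percent of all genes called). The shared sign was lost there, with -0.15 for Npc1l1, -0.07 for Dgat1, -0.04 for Fabp2 and -0.01 for Apoa1. The others were 0.45 for Apob, 0.24 for Fabp1, 0.05 for Apoa4, 0.05 ± 0.41 for Cd36, 0.02 for Mttp and 0.01 for Apoc3.

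Across the 76 jejunum arrays, taken as deviations from each group's mean, most of the 10 genes were positively correlated with each other. Apoa4 correlated with Apoc3 at r = 0.96 and with Fabp1 at 0.95, and Apoc3 with Fabp1 at 0.94, and over the 72 arrays that are not distal these were 0.96, 0.84 and 0.87. Cd36 correlated with Apoc3 at 0.78 and 0.67, and Mttp with Fabp1 at 0.84 and 0.75. With Apoa4, over all arrays and without the distal ones, Dgat1 was at 0.82 and 0.56, Mttp at 0.78 and 0.56, Npc1l1 at 0.73 and 0.44 and Apoa1 at 0.71 and 0.53. Apob was at 0.24 and 0.19 to Apoa4, and its highest value to a member was that to Dgat1, at 0.59 and 0.69. Dgat1 was also lower at higher places, with r = -0.68 at 6 h over 30 arrays (permutation, adjusted p = 0.000571) and r = -0.63 at 12 h over 42 (adjusted p = 0.000433). Fabp2 reached at most 0.47 to any member over all arrays and was at -0.46 to Apoa4 without the distal ones. These points share arrays, RNA and normalization, and the values are descriptions.

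Most of the 10 genes followed the level of Gata4 from array to array, also without the distal arrays. Over the 42 such arrays at 12 h, r with Gata4 was 0.91 for Apoa4, 0.91 for Apoc3, 0.91 for Fabp1, 0.78 for Cd36 and 0.77 for Mttp (permutation p = 1e-05 for each, the smallest that 100000 permutations can give, adjusted p = 5e-05). Leaving out the 2 arrays of most extreme Gata4 left these at 0.90, 0.91, 0.90, 0.83 and 0.79. The rank correlations (Spearman) were 0.94, 0.92, 0.91, 0.76 and 0.78. At 6 h, over 30 arrays, r was 0.82 for Apoa4, 0.87 for Apoc3, 0.57 for Fabp1, 0.75 for Cd36 and 0.57 for Mttp (adjusted p = 5e-05, 8.89e-05, 0.00779, 0.00012 and 0.00668). Dgat1 had r = 0.66 at 6 h and 0.59 at 12 h (adjusted p = 0.000255 and 0.000492), and Apoa1 0.59 and 0.47 (adjusted p = 0.00852 and 0.00779). Npc1l1 had 0.31 and 0.39 (adjusted p = 0.115 and 0.055), which did not pass the threshold. Fabp2 ran the other way at 12 h (r = -0.49, adjusted p = 0.00722), and Apob was not related to Gata4 past the threshold (r = 0.32 and 0.23, adjusted p = 0.0929 and 0.226 at 6 and 12 h). Each r pools the groups of a time, and Gata4 was chosen after its values had been seen.

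**Figure D5:**
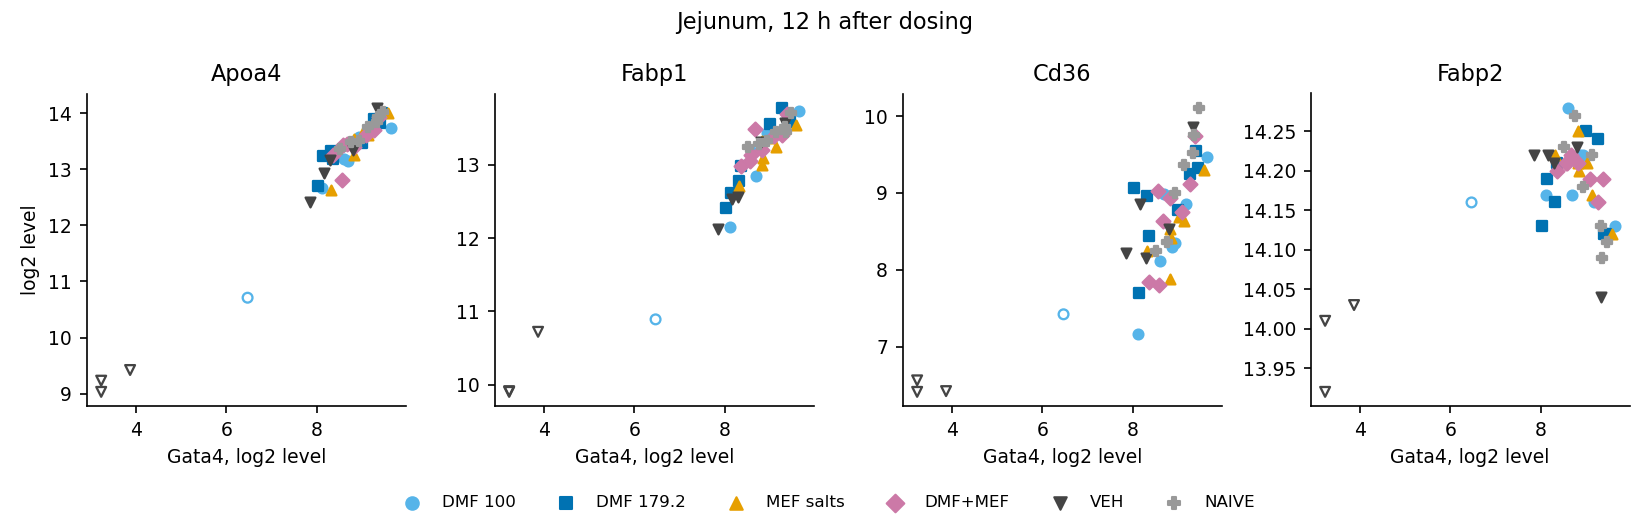
Log2 levels (vertical axes) of Apoa4, Fabp1, Cd36 and Fabp2 against the log2 level of Gata4 (horizontal axes) on each jejunum array at 12 h, with a marker per group and the 4 distal arrays drawn open. Apoa4, Fabp1 and Cd36 are higher where Gata4 is higher, also among the filled points (r = 0.91, 0.91 and 0.78), and among the filled points Fabp2 is lower there (r = -0.49).

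The genes most alike to each member were sought among 8538 non-member genes above the median level, by the correlation of deviations from the group mean over the 76 arrays. For Apob they were Mfsd11 (0.92), Tiprl (0.91) and Tra2b (0.90), which includes the gene that marks the gradient along animal numbers. For Apoa4 they were Adh6a (0.98), Ugt2a3 (0.97) and Gata4 (0.97), for Apoc3 Ms4a10 (0.98), Adh6a (0.97) and Cyp2b10 (0.97), and for Fabp1 Ugt2a3 (0.96), Ms4a10 (0.96) and Adh6a (0.95). For Mttp they were H2-Q1 (0.90), Sgpl1 (0.87) and Gda (0.86), for Dgat1 Slc43a2 (0.91), Tmem86a (0.86) and Nek6 (0.86), and for Cd36 Rbp2 (0.87), Aadac (0.87) and Gip (0.86). For Npc1l1 they were Cyp4v3 (0.83), Alpi (0.82) and 1810055G02Rik (0.80), for Apoa1 1810055G02Rik (0.76), Cyp2b10 (0.74) and Acsl5 (0.74), and for Fabp2 Anxa4 (0.75), Kcnj13 (0.72) and Acot11 (0.72). Over the 72 arrays that are not distal, Malat1 (0.91) replaced Tra2b for Apob. For Apoa4 the 3 were then Apoc2 (0.94), Adh6a (0.94) and Efr3b (0.93), without Gata4. All 3 changed for Apoa1 (highest H2-Bl, 0.60), Npc1l1 (Mlxipl, 0.78), Cd36 (Chpt1, 0.90) and Fabp2 (Bach1, 0.74). Among those that stayed were Ms4a10 for Apoc3, Ugt2a3 for Fabp1, H2-Q1 for Mttp and Slc43a2 for Dgat1.

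Other genes of the pathway were taken from 5 lists covering uptake and activation, triglyceride synthesis, chylomicron assembly, sterol absorption and regulators, with 81 genes measured. At 6 h against VEH, 1 was called higher and 2 lower with DMF 100, 5 higher and 3 lower with DMF 179.2, 1 higher and 1 lower with MEF salts, and 3 higher and 4 lower with DMF+MEF. Called genes were 3.7, 9.88, 2.47 and 8.64 percent of the 81, beside 2.61, 8.62, 1.19 and 6.57 percent of all genes. The median change of the 81 was 0.02, 0.04, 0.05 and 0.00. Lpin2, a phosphatidate phosphatase that makes the diacylglycerol on the way to triglyceride, rose by 0.33 ± 0.10 with DMF 100 (adjusted p = 0.0493), 0.63 ± 0.08 with DMF 179.2 (adjusted p = 1.29e-08) and 0.34 ± 0.09 with MEF salts (adjusted p = 0.0401). Klf5, a transcription factor of the intestinal epithelium, fell by 0.83 ± 0.17 with DMF 100, 0.71 ± 0.14 with DMF 179.2 and 0.86 ± 0.16 with DMF+MEF (adjusted p = 0.00304, 0.000409 and 0.00031). Prdm1, a transcriptional repressor, fell by 0.53 ± 0.14 with DMF 179.2, 0.61 ± 0.16 with MEF salts and 0.53 ± 0.16 with DMF+MEF. Lgr5, a marker of intestinal stem cells, also fell, by 1.1 ± 0.31 with DMF 100 and 0.81 ± 0.26 with DMF 179.2, and its part in these changes was not tested. The mean of 8 measured of 9 listed crypt and proliferation genes, Lgr5 among them, lay between 8.94 and 9.12 with DMF 100. It lay between 8.80 and 9.18 with DMF 179.2, against 8.95 and 9.20 with VEH.

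No gene of the 10 measured in fatty acid uptake and activation was called at 6 h in any dosed group, and of 23 measured in chylomicron assembly only Vamp7, a vesicle fusion protein, was called, 0.38 ± 0.11 higher with DMF+MEF (adjusted p = 0.0167). Among 13 sterol genes, Flot1 was called higher with DMF 179.2 (0.27 ± 0.07) and DMF+MEF (0.26 ± 0.08), and Npc1, which moves cholesterol out of lysosomes, fell by 0.52 ± 0.16 with DMF+MEF (adjusted p = 0.0289). Insig1, a brake on sterol synthesis, rose by 0.33 ± 0.10 with DMF 179.2 (adjusted p = 0.0294). Among 16 genes of triglyceride synthesis and droplets, Lpin3 rose by 0.34 ± 0.11 and Lpin1 fell by 0.46 ± 0.15 with DMF 179.2, and Abhd5, a cofactor of triglyceride lipase, fell by 0.43 ± 0.09 with DMF+MEF (adjusted p = 0.000765). Nr5a2, a nuclear receptor, fell by 0.82 ± 0.19 with DMF 100 (adjusted p = 0.0108), and of the other regulators Mlxipl rose by 0.36 ± 0.11 with DMF 179.2 and Rxra by 0.29 ± 0.08 with DMF+MEF. With place as a covariate, 4 of the 81 were called higher and 1 lower with DMF 179.2, and 1 higher and 1 lower with DMF+MEF. The share of all genes called with place as a covariate is not given here, so these counts are not shown to be particular to the pathway. Of the genes named, the calls of Lpin2 with DMF 100, of Insig1, Lpin1, Lpin3, Mlxipl and Prdm1 with DMF 179.2, and of Abhd5, Npc1, Prdm1, Rxra and Vamp7 with DMF+MEF were lost there.

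At 12 h with all arrays, 1 of the 81 was called higher and 0 lower with DMF 100, 12 higher and 4 lower with DMF 179.2, 3 higher and 2 lower with MEF salts, and 6 higher and 3 lower with DMF+MEF. Called genes were 1.23, 19.8, 6.17 and 11.1 percent of the 81, beside 0.632, 7.40, 0.813 and 3.45 percent of all genes. Of the 23 chylomicron assembly genes measured, 7 were called higher with DMF 179.2, where 4.74 percent of all genes were, and no test of that difference was run. Among the 7 were Apoc2, the activator of lipoprotein lipase (1.31 ± 0.36, adjusted p = 0.0144), Tm6sf2 (0.38 ± 0.09) and the cargo receptor gene Surf4 (0.30 ± 0.09). Mogat2, which makes diacylglycerol from absorbed monoacylglycerol, was 0.23 ± 0.06 higher (adjusted p = 0.00637). Insig1 fell by 0.46 ± 0.10 with DMF 179.2, 0.48 ± 0.11 with MEF salts and 0.43 ± 0.10 with DMF+MEF. Once the distal arrays were left out, limma called 0 of the 81 with DMF 100 (6 unadjusted), 0 with DMF 179.2 (6 unadjusted), 0 with MEF salts (4 unadjusted) and 1 with DMF+MEF (8 unadjusted), where 0.216, 1.58, 0.0292 and 0.445 percent of all genes were called. The last was Apoa5, an apolipoprotein that promotes triglyceride clearance, 0.17 ± 0.04 higher (adjusted p = 0.0148), also called with all arrays at 0.17 ± 0.03. The DMF 179.2 effect on Lpin2 at 12 h minus that at 6 h was -0.61 ± 0.12 without the distal arrays (adjusted p = 0.00312), that on Insig1 -0.58 ± 0.14 (adjusted p = 0.0179) and that on Prdm1 0.73 ± 0.19 (adjusted p = 0.044). Slc5a4b, a sodium-glucose cotransporter family gene on the proximal list, stayed called without the distal arrays, 1.42 ± 0.22 higher with DMF 179.2 (adjusted p = 2.02e-05) and 1.22 ± 0.22 higher with DMF+MEF (adjusted p = 0.000793).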

How the data were processed

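Jejunum RNA of 76 animals (of 550 arrays from 7 organs, in 77 groups) was analysed. The deposited values are log2 probe set signals of the authors, and the submitters' processing notes name RMA, GCRMA, R 2.11.1 and limma 3.4.5, with no role or order. The lowest value was 2.15 on all jejunum arrays at 6 h and 2.18 at 12 h (24.3 and 24.6 percent of values), a sign that the times were normalized separately, and no level is compared across them. Of 45141 probe sets, 28898 named 1 gene through the platform annotation, 551 several and 15588 none, and 104 were controls. They gave 17097 genes, 1 probe set each.

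A model with 1 mean per group over all jejunum arrays was fitted by limma 3.58.1 in R 4.3.3 (with data.table, version 1.17.8), with moderated variances and 14 contrasts. The rest used numpy 2.4.6, pandas 2.3.3 and matplotlib 3.10.9 under Python 3.11.15. Replicates are separate animals by their numbers. The precision is limited by the number of arrays. The steps were tested on simulated data. The 10 genes and all lists were chosen with earlier results of these data known, and the lists lend no independent support.

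Named genes were, by rule, the 10 members in every contrast, up to 4 called genes of each list per contrast with the largest change, for each member the 3 genes most alike to it, and Hoxb6, Hoxb9 and Tra2b. Fabp6, and Gata4 where the rule does not name it, were picked with their values known. As alternatives, the fit was repeated after quantile normalization of the deposited values, without dim genes, with trend and robust variance, on the mean of a gene's probe sets, with place as a covariate, within spans of 4 places that both groups share, on fewer groups, without the distal arrays, and without single arrays of the 6 h DMF 100, MEF salts and DMF+MEF groups. The Gata4 level as a covariate was added after the data had been seen. Correlations used 100000 permutations.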

Additional observations from a re-analysis of the deposited data

Results flagged for a closer look

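Of 110 groups of 4 to 10 jejunum arrays (10 genes in 11 groups), 8 held an array that Dixon's test at the 95 percent level sets apart, and chance gives about 1 in 20. Apoa4 was 10.71 on the 12 h DMF 100 replicate 15 and Apoc3 was 12.03 on the same array, which is the distal array of that group (next lowest 12.67 and 12.93). Apoa4 was 12.52 on the 6 h VEH replicate 53, where the next lowest was 13.31 and Gata4 was 8.79, the lowest of the 6 h arrays. Npc1l1 was 12.75 on the 6 h DMF 179.2 replicate 73 (next 12.67). The other 4 lie at the top of the scale: Apoa1 was 14.34 on the 6 h MEF salts replicate 80, 14.17 on the 12 h MEF salts replicate 31 and 14.17 on the 12 h NAIVE replicate 46, and Fabp2 was 14.17 on the 6 h DMF 100 replicate 61. The causes were not tested.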

How the results depend on the processing

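With a further quantile normalization, with dim genes left out, with trend and robust variance and with the mean of all probe sets, each count of called genes stayed within 1.5 times its value, but some calls were exchanged at 12 h. Quantile normalization ended those of Mttp (adjusted p = 0.0608) and Cd36 (0.0521) with DMF 179.2 and added Fabp2 with DMF 179.2 (0.0089) and DMF+MEF (0.000979). The mean of probe sets ended Mttp (0.0559) and Cd36 (0.0631) with DMF 179.2 and Mttp with DMF+MEF (0.055), and leaving out dim genes added Apoc3 with MEF salts. The count with DMF 179.2 at 6 h (2) was 1 with place as a covariate and 1 within shared places. That with DMF+MEF at 6 h (1) was 0 with place as a covariate and 0 with the groups compared alone, 3 with the Gata4 level as a covariate (a setting chosen after seeing the data), and 0 to 1 when each array of the small groups was left out. There the Apob call was lost without DMF+MEF replicate 84 (adjusted p = 0.055), 85 (0.0512) or 86 (0.0915). At 12 h all 6 calls with DMF 179.2 were lost with the Gata4 covariate, where the count of 1 is Apoa1 lower (adjusted p = 0.00947). The count was 0 with the groups alone, 2 with arrays of the same time alone (Apoa4 and Fabp1), 0 within shared places, 0 without the distal arrays and 0 without them and with place. The Apoa4 change was 1.75 with the groups alone and 3.26 within shared places, against 0.27 without the distal arrays. The shared places are 5 to 8, where 3 of the 4 VEH arrays are distal. With MEF salts (2) it was 0 under each of these 6 settings. With DMF+MEF (4) it was 1, 0, 2, 0, 1 and 1 in the same order, and each 1 is Apoa1 lower, with the 4 higher calls lost. For VEH against NAIVE (5) it was 1 with the Gata4 covariate, which is Apoa1 higher with the 5 lower calls lost, and 0 in shared places, in the 2 groups alone, without the distal arrays, and without them and with place. The count for DMF 179.2 between times (0) was 1 with place. Sparse groups mean fewer arrays in the settings with groups alone and within shared places, and the cause of the other moves was not tested. Among these settings, the share of all genes called is given above only for the fit without the distal arrays and without place. For the other settings that share is not given here. A changed count there is therefore not shown to be particular to these genes.

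With the Gata4 covariate at 12 h, the sign turned for Apoc3 (-0.09), Mttp (-0.03) and Cd36 (-0.12) with DMF 179.2, Apoa4 (-0.14) and Fabp1 (-0.04) with MEF salts, Apoa4 (-0.08), Apoc3 (-0.05) and Mttp (-0.02) with DMF+MEF, and Apoa4 (0.02) and Apoc3 (0.02) for VEH against NAIVE. Without the distal arrays and with place, it turned for Mttp (-0.01) and Npc1l1 (-0.02) with DMF 179.2, and within shared places Apoa4 with DMF+MEF was at 0.0. Within shared places, 6 h DMF 100 and DMF+MEF against VEH could not be run, as no span held 2 arrays of each group. No paired analysis was possible because the groups compared hold different animals with different numbers. Apob, Npc1l1 and Apoa4 have 1 probe set each, so no other probe set bears on them. Probe sets at the top of the scale, as for Apoa1 and Fabp2, limit what a small change there can show.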

Other observations

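Outside the jejunum, the 10 genes were tested against VEH with each dosed group and time, 80 tests per organ, with the organs fitted apart. In the kidney 6 were called (19 at an unadjusted p below 0.05), where 1.38 to 25 percent of all genes were called in a comparison. In the inguinal lymph node 1 was called (6 unadjusted), where 0.00585 to 12.3 percent of all genes were. In brain, mesenteric lymph node, spleen and whole blood limma called 0 (8, 4, 5 and 3 unadjusted), where at most 7.2, 13.8, 23 and 0.322 percent of all genes were called in a comparison. Npc1l1 averaged 2.12 to 2.87 over the groups of the 6 organs, near the floor of the scale, and Apob 2.12 to 2.26 in all organs but the kidney. Fabp2 reached 11.78 on 1 of 8 spleen arrays with DMF 100 at 12 h, where the median was 2.26. Apob in the kidney at 6 h lay between 4.80 and 6.13 with DMF 179.2 (median 5.64), below every VEH array (6.24 to 7.28, median 6.64), a change of -1.09 ± 0.30 (adjusted p = 0.00409), where 25 percent of all genes were called.

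Kidney apolipoproteins rose in the other 5 calls. Apoa1 rose by 1.18 ± 0.37 with DMF+MEF at 6 h (adjusted p = 0.0201, 13.2 percent of all genes called), with levels of 5.29 to 9.71 against 5.11 to 5.52 with VEH, and by 1.18 ± 0.35 with MEF salts at 12 h (adjusted p = 0.0127, 17.5 percent), with 5.25 to 8.02 against 4.64 to 6.06 with VEH. Apoa4 rose by 0.44 ± 0.14 with MEF salts at 12 h (adjusted p = 0.0195). Apoc3 rose at 12 h by 0.46 ± 0.13 with DMF 179.2 (adjusted p = 0.0162, 7.25 percent) and 0.46 ± 0.16 with DMF+MEF (adjusted p = 0.0488, 11 percent). In the inguinal lymph node at 12 h, Fabp1 rose by 1.38 ± 0.37 with DMF 179.2 (adjusted p = 0.0091, 12.3 percent of all genes called), with levels of 7.79 to 9.12 against 5.64 to 8.63 on the 4 VEH arrays. The place of the animal number was not taken into account in these 7 results.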
